A study of Mus musculus with 26 samples.

Results

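Microglia that lack progranulin were set directly against microglia that lack TMEM106B. The comparison takes the 4 RNA-seq libraries whose genotype label is TMEM WT GRN KO, called Grn KO here, and the 4 labelled TMEM KO GRN WT, called Tmem106b KO, which are 8 of the 26 mouse microglia libraries of the series. The 26 libraries fall into 7 combinations of Tmem106b and Grn genotype, and the question behind the series is how less Tmem106b bears on microglia short of progranulin. Each of the 8 libraries lacks 1 of the 2 genes and carries the other as wild type, and 3 libraries labelled TMEM WT GRN WT, called WT, give the level of each gene with both genes intact. The Grn KO libraries came from 3 females and 1 male, and the Tmem106b KO libraries from 1 female and 3 males. Replicate 2 of each group carried the dissection label Hemi and the other 3 the label Entire, with no further explanation. The WT libraries came from 1 female and 2 males, of which replicate 2 was labelled Hemi. Age, the way the microglia were isolated and the design of the null alleles are not given in the sources used. Whether the libraries stem from different mice is not stated either, so p-values measure only how far these libraries differ, which may be partly technical.

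Progranulin, the product of Grn, is a secreted glycoprotein that is carried to the lysosome and cut there into granulin peptides. TMEM106B, the product of Tmem106b, is a single-pass membrane protein of late endosomes and lysosomes. Both genes are known for frontotemporal dementia: loss of 1 GRN copy causes the disease in people, loss of both causes a lysosomal storage disease, neuronal ceroid lipofuscinosis, and variants at TMEM106B modify the risk of GRN carriers. Microglia are the macrophages of the brain, rich in lysosomes, and are known to take on a disease-associated state with high Apoe, Gpnmb and Lgals3 and low homeostatic genes in several models of neurodegeneration.

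The Grn KO libraries held 46334563 to 63710833 exonic counts each, more than any Tmem106b KO library, at 38602488 to 43739542 counts. Levels are given as counts per 1000000 (CPM), scaled by TMM for single genes and by the library total for sums over marker lists. Xist (42.4 to 72.4 CPM in female libraries, 0 CPM in male ones) and Y-linked genes (0 to 2.61 CPM summed in females, 153 to 189 CPM in males) followed the sex labels. Microglial genes were present in every library, but Tmem106b KO replicate 2 stood apart from the rest. Its neuron marker genes summed to 8913 CPM, against 297 to 1280 CPM in the other 3 Tmem106b KO libraries and 584 to 1018 CPM in the Grn KO libraries. Its level of Tmem119, a membrane protein typical of microglia, was 807 CPM, against 4250 to 5887 CPM in the other 3 Tmem106b KO libraries. For many genes and lists whose call or direction turned on it, the value without it is given as well. In bulk RNA, fewer cells of a type and less RNA per cell cannot be told apart.

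Grn transcript was nearly gone from the libraries labelled Grn KO. Its level in CPM was 0.138, 16, 3.22 and 0 in the 4 Grn KO libraries, 4470, 554, 2215 and 3347 in the 4 Tmem106b KO libraries and 3897, 2299 and 3838 in the 3 WT libraries. No Grn KO library reached the lowest library of either other group. Mean levels were 4.84 ± 7.58 CPM in Grn KO libraries and 2646 ± 1671 CPM in Tmem106b KO libraries (SD, n = 4 each), which are 0.145% and 79.1% of the WT mean of 3345 ± 906 CPM (SD, n = 3). Without replicate 2, at 554 CPM, the Tmem106b KO mean was 3344 ± 1128 CPM (SD, n = 3). The gene (ENSMUSG00000034708, GRCm38 chromosome 11, 102430315 to 102437048) had a log2 fold change, Grn KO over Tmem106b KO as in all direct comparisons here, of -9.91 (SE 1.66, edgeR adjusted p = 0.0093). An exact permutation test over the 70 splits of 4 against 4 gave a two-sided p = 0.029 (0.029 adjusted over the 2 genes tested), the smallest this design allows. Without Grn KO replicate 1 the log2 fold change of Grn was -8.82 and did not pass (edgeR adjusted p = 0.069). Of 13 tested genes within 200 kb of Grn, 0 passed in the direct comparison by edgeR, the smallest adjusted p being 0.86 for Slc25a39.

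Tmem106b transcript was reduced but not absent in the libraries labelled Tmem106b KO. Tmem106b stood at 102, 72.1, 60.3 and 66 CPM in Grn KO libraries, at 24, 26.7, 26.4 and 35.7 CPM in Tmem106b KO libraries and at 88.6, 68.7 and 75.5 CPM in WT libraries. All Tmem106b KO libraries lay below all libraries of the other groups, at 28.2 ± 5.13 CPM (SD, n = 4) or 36.3% of the WT mean, whereas Grn KO libraries averaged 75 ± 18.3 CPM (SD, n = 4), 96.6% of it. The log2 fold change of Grn KO over Tmem106b KO was 1.53 (SE 0.21, edgeR adjusted p = 0.0036; exact permutation p = 0.029, two-sided, 0.029 adjusted over the 2 genes) for this gene (ENSMUSG00000029571, chromosome 6, 13069759 to 13089269). Counts are summed over exons, so which exons the remaining reads cover was not tested. The paralogs Tmem106a and Tmem106c did not pass in the direct comparison, with log2 fold changes of 1.14 (SE 0.28, edgeR adjusted p = 0.12) and 0.10 (SE 0.19, edgeR adjusted p = 1); the second turned to -0.15 with no scaling beyond the library total.

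Across the transcriptome the difference between the single losses ran mostly one way. Of 21371 genes tested with edgeR's quasi-likelihood test, 72 were higher in Grn KO than in Tmem106b KO at a Benjamini-Hochberg adjusted p under 0.05, which is 0.337% of genes, and 4 were lower, which is 0.0187%. An unadjusted p under 0.05 was found in 1345 of the 21371 genes, the background for such counts of list members below. The fitted log2 fold change of the 72 ran from 0.80 to 12.83 with a median of 1.84, and 43 of them lay under 2. In 71 of the 72 every Grn KO library exceeded every Tmem106b KO library (the exception was Ms4a4a), and 4% of all genes separated that way. Of the 4 lower genes 3 separated in the other direction, all but Upk1b, which 1.93% of all genes did. The genes were picked by p in these same libraries, so their separation follows in part from that choice and is no added support. The 76 genes were spread over the chromosomes, with at most 8 higher genes on one of them, chromosome 7. The plot of all genes tested shows the higher genes at every level of expression above about 1 CPM.

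**Figure D1:**
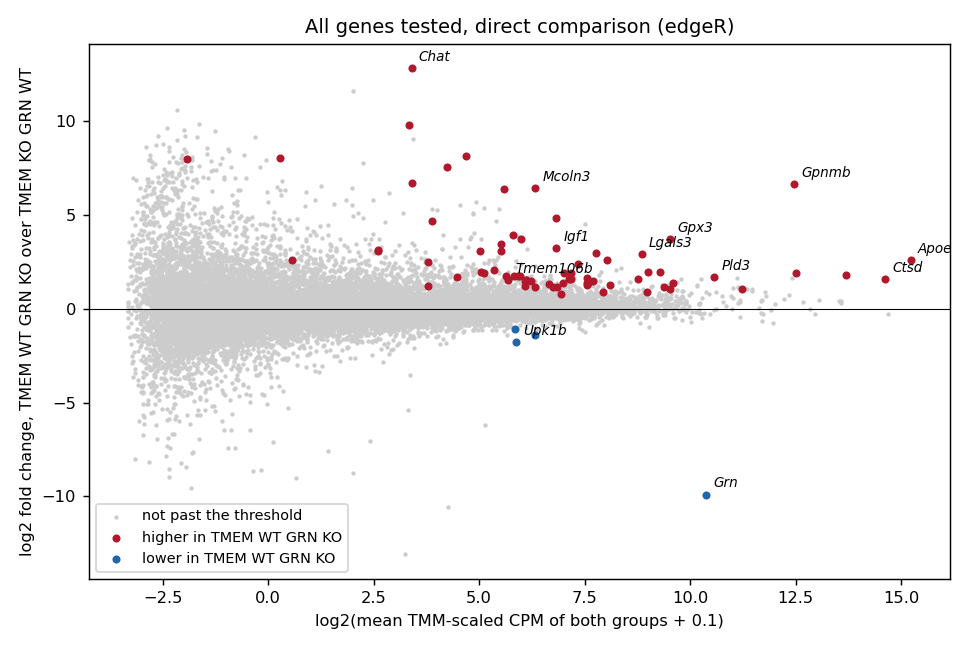
Each point is a gene, placed by the log2 of its mean level over both groups (TMM-scaled CPM plus 0.1, horizontal) and by its log2 fold change, TMEM WT GRN KO over TMEM KO GRN WT (vertical). Red points are the 72 genes higher and blue points the 4 genes lower in Grn KO at an edgeR adjusted p under 0.05, and grey points did not pass. Red points reach the most abundant genes, such as Apoe and Ctsd. The lower genes other than Grn have log2 fold changes of -1.78 (Upk1b), -1.41 (Serpinf1) and -1.08 (Chd9).

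How many genes passed depended on which libraries and covariates entered. With only the 8 libraries in the fit and no estimate of the spread from the other groups, 1 gene was higher, Igf1, and 0 were lower by edgeR, with 910 genes at an unadjusted p under 0.05, while 71 of the 72 genes had the same sign. Without Grn KO replicate 1, the only male of its group, 8 genes were higher and 0 lower by edgeR, with 1110 genes at an unadjusted p under 0.05. Those 8, which passed with any 1 of the 8 libraries left out, were Apoe, Pld3, Gpr137b, Pla2g7, Plin2, Tmem106b, Rftn1 and Lgals3. Leaving out the divergent Tmem106b KO replicate 2 gave 42 higher and 12 lower genes, 37 of the 72 among the higher ones, and left 77.8% of calls higher, against 94.7% with all libraries. Without Tmem106b KO replicate 3, Tmem106b KO replicate 4 or Grn KO replicate 4 the higher genes numbered 29, 24 and 30, and 1 gene was lower each time; without Tmem106b KO replicate 1 there were 50 higher and 2 lower genes. The share of higher calls was 80% by DESeq2 (300 higher, 75 lower) and 69.9% with only Entire libraries (121 higher, 52 lower).

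Among the 15 higher genes with the smallest p, Gpnmb, Lgals3, Apoe, Ctsb and Pld3 were on the disease-associated or lysosomal lists. Gpnmb, a transmembrane glycoprotein that gathers on lysosomes of stressed macrophages, was at 13934, 8314, 9669 and 12937 CPM in Grn KO libraries, against 118, 33.6, 190 and 89.2 CPM in Tmem106b KO libraries. The groups differed by a factor of about 100 and did not come near each other (log2 fold change 6.65, SE 1.06, edgeR adjusted p = 0.008). The WT libraries had Gpnmb at 4.14, 1.75 and 8.9 CPM, below every Tmem106b KO library. Lgals3, galectin-3, a lectin that binds sugars exposed on damaged lysosomes, was at 815, 647, 859 and 977 CPM in Grn KO libraries, against 145, 38.3, 145 and 82.9 CPM in Tmem106b KO libraries. All 4 Grn KO values were more than 4 times the highest Tmem106b KO value (log2 fold change 2.93, SE 0.39, edgeR adjusted p = 0.0028). Apoe, the lipid carrier that microglia secrete, was among the most abundant transcripts, at 49499, 54899, 78183 and 83070 CPM in Grn KO libraries, against 16748, 3400, 12935 and 9956 CPM in Tmem106b KO libraries. Again the groups did not overlap (log2 fold change 2.60, SE 0.42, edgeR adjusted p = 0.008). Per kilobase, Apoe averaged 27919 ± 5540 RPKM, Ctsd 13678 ± 1606 RPKM, Ctsb 3337 ± 487 RPKM and Gpnmb 1929 ± 422 RPKM in Grn KO libraries (SD, n = 4), so Gpnmb was the lowest of these 4 transcripts there.

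**Figure D2:**
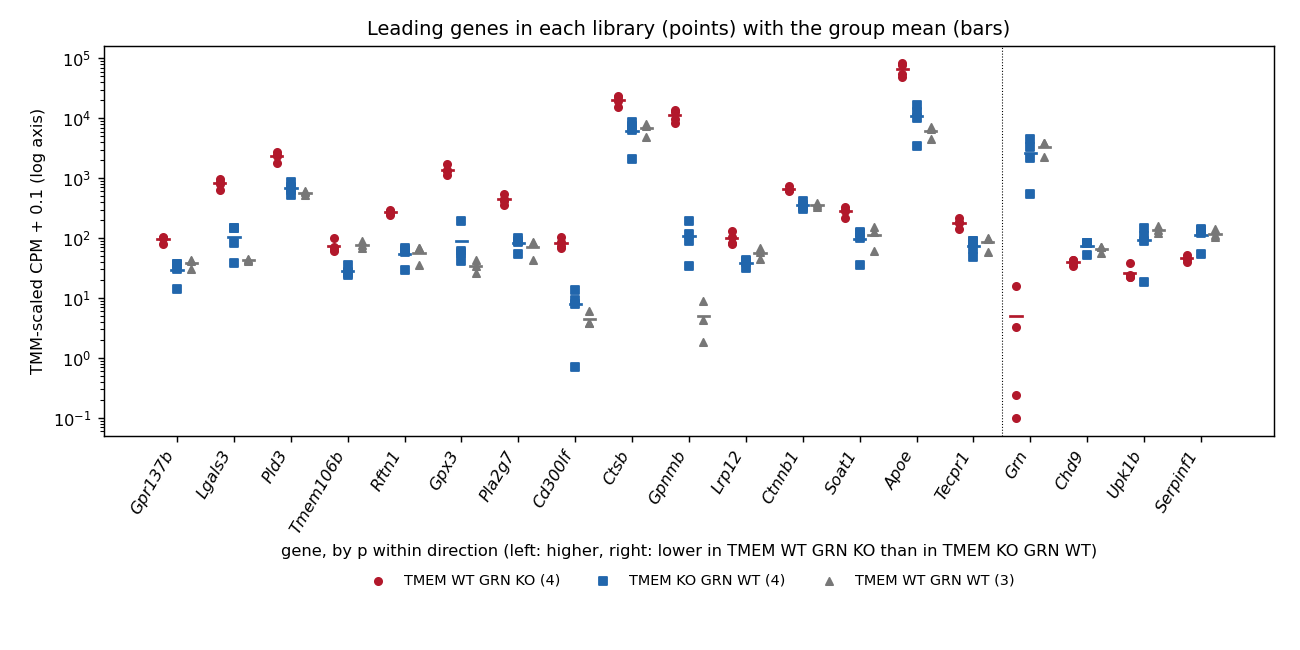
Each point is a library: TMEM WT GRN KO (4 red circles), TMEM KO GRN WT (4 blue squares) and TMEM WT GRN WT (3 grey triangles); the vertical axis is TMM-scaled CPM plus 0.1 on a log scale, bars are group means, and genes run by p within direction. Left of the dotted line the Grn KO points lie above the Tmem106b KO points for each of the 15 genes, and on the right Upk1b overlaps because Tmem106b KO replicate 2 is at 18.6 CPM.

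Lysosomal hydrolases had mostly positive values, of which few passed. Ctsb, cathepsin B, a cysteine protease of the lysosome, was at 23035, 15600, 19465 and 23532 CPM in Grn KO libraries, against 8747, 2093, 6491 and 7402 CPM in Tmem106b KO libraries (log2 fold change 1.79, SE 0.28, edgeR adjusted p = 0.008). Pld3, a lysosomal exonuclease that degrades single-stranded DNA and RNA, was at 2379, 1826, 2471 and 2779 CPM in Grn KO libraries, against 854, 714, 528 and 643 CPM in Tmem106b KO libraries (log2 fold change 1.69, SE 0.23, edgeR adjusted p = 0.0028). For both enzymes the lowest Grn KO library was above the highest Tmem106b KO library. Of 48 lysosomal hydrolases tested, 4 passed as higher (Pld3, Ctsb, Lipa and Ctsd), where 0.337% of all genes did, and 0 as lower, with a median log2 fold change of 0.69 against 0.02 over all genes. A positive value was found in 45 of the 48. Every Grn KO library lay above every Tmem106b KO library in 14, where 4% of all genes separated that way. An unadjusted p under 0.05 was found for 27, against 1345 of all 21371 genes. DESeq2 called 9 as higher, against 300 genes in all. Lipa, the acid lipase that frees cholesterol from esters in the lysosome, had a log2 fold change of 1.37 (SE 0.26, edgeR adjusted p = 0.023). Ctsd, cathepsin D, an aspartic protease whose loss causes a neuronal ceroid lipofuscinosis, had one of 1.60 (SE 0.34, edgeR adjusted p = 0.048). Without Tmem106b KO replicate 2, the hydrolases that passed were Pld3 and Ctsb, and the median was 0.53. With 1 of the 8 libraries left out in turn, Lipa passed in 2 fits and Ctsd in 1.

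Membrane proteins of the lysosome held few calls, some of them with large differences. Gpr137b, a lysosomal membrane protein that recruits Rag GTPases, had the smallest p of all genes, with 106, 80.8, 98.5 and 98.4 CPM in Grn KO libraries, against 36.3, 14.2, 30.5 and 37 CPM in Tmem106b KO libraries (log2 fold change 1.76, SE 0.21, edgeR adjusted p = 0.0015). Mcoln3, a cation channel of endosomes and lysosomes, was at 202, 153, 116 and 166 CPM in Grn KO libraries, against 1.36, 0, 4.93 and 3.81 CPM in Tmem106b KO libraries, and no WT library held a count of it. The groups were far apart (log2 fold change 6.44, SE 1.25, edgeR adjusted p = 0.029; 5.81 without Tmem106b KO replicate 2). Cd63, a tetraspanin of late endosomes, had a log2 fold change of 1.99 (SE 0.36, edgeR adjusted p = 0.017), but reads of the near-identical copy Cd63-ps, which also passed, may be shared with it. Cd63 and Mcoln3 were the 2 of 36 lysosomal membrane genes tested that passed (median 0.30), where 0.337% of all genes did. They passed in 6 and 3 of the 8 fits that left out a library. Of the 36, 28 had a positive fold change, and 8 had every Grn KO library above every Tmem106b KO library, against 4% of all genes. DESeq2 called 7 as higher, against 300 genes in all. Without Tmem106b KO replicate 2 the median was 0.16. Cd68, the heavily glycosylated macrophage marker of the same membrane, missed the threshold, with 3529, 2252, 3614 and 3865 CPM in Grn KO libraries and 1893, 221, 1101 and 1326 CPM in Tmem106b KO libraries (log2 fold change 1.65, SE 0.36, edgeR adjusted p = 0.051).

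A list of 22 genes took in the MiT-TFE transcription factors, the Rag GTPases that hold them at the lysosome, and others such as Mtor, Rptor and Flcn. Of these 22 genes 1 passed, where 0.337% of all genes did. Rragc, which encodes the Rag C GTPase, was at 385, 242, 314 and 325 CPM in Grn KO libraries, against 215, 97.5, 178 and 210 CPM in Tmem106b KO libraries (log2 fold change 0.91, SE 0.18, edgeR adjusted p = 0.026). The groups did not overlap, and the call was lost without Tmem106b KO replicate 2. Rragd, the Rag D partner of the same dimer class, was at 87.3, 65.5, 64.1 and 67.5 CPM in Grn KO libraries, against 6.86, 46.8, 5.82 and 7.09 CPM in Tmem106b KO libraries, where the 1 high value belongs to replicate 2. Its log2 fold change of 2.74 (SE 0.62) had an edgeR adjusted p of 0.061, and without that library it was 3.18 (edgeR adjusted p = 0.049). In the vacuolar ATPase, which pumps protons into lysosomes, 0 of 12 V0 and 0 of 10 V1 subunits passed, with medians of 0.24 and 0.15. Among them 2 and 3 had an unadjusted p under 0.05, against 1345 of all 21371 genes. For these subunits limma-voom called 1 and 0, and DESeq2 called 0 and 0, against 146 and 300 genes called higher in all. Atp6v0d2, the V0 d subunit isoform best known from osteoclasts, was at 84.8, 91.6, 88.4 and 83.3 CPM in Grn KO libraries, against 3.32, 0, 3.06 and 0.674 CPM in Tmem106b KO libraries. Although the groups were far apart, its log2 fold change of 5.32 (SE 1.54) did not pass (edgeR adjusted p = 0.27). Of 27 autophagy genes 2 passed, where 0.337% of all genes did. They were Tecpr1, which links autophagosomes and damaged membranes to the conjugation machinery (log2 fold change 1.36, SE 0.22, edgeR adjusted p = 0.008), and Atg7, the enzyme that activates ubiquitin-like ATG8 proteins (1.21, SE 0.24, edgeR adjusted p = 0.026). Rragc and Atg7 each passed in 2 of the 8 fits that left out a library. Neither passed without Tmem106b KO replicate 2, at 0.77 (edgeR adjusted p = 0.069) and 1.12 (edgeR adjusted p = 0.08).

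Genes of cholesterol ester and lipid droplet turnover were the other group with several calls. Of 26 lipid efflux and storage genes tested, 6 passed as higher (Soat1, Apoe, Fabp5, Plin2, Nceh1 and Lipa), where 0.337% of all genes did, and 0 as lower, with a median log2 fold change of 0.40. Soat1, which esterifies cholesterol for storage, was at 330, 215, 284 and 293 CPM in Grn KO libraries, against 127, 36.1, 122 and 102 CPM in Tmem106b KO libraries (log2 fold change 1.64, SE 0.27, edgeR adjusted p = 0.008). Nceh1, which hydrolyses neutral cholesterol esters, was at 270, 194, 171 and 210 CPM in Grn KO libraries, against 57.6, 123, 66.6 and 62.7 CPM in Tmem106b KO libraries (log2 fold change 1.61, SE 0.30, edgeR adjusted p = 0.021). Enzymes that make and that break cholesterol esters were thus both higher. Plin2, a coat protein of lipid droplets, had a log2 fold change of 1.31 (SE 0.24, edgeR adjusted p = 0.017), and Fabp5, a cytosolic fatty acid carrier, one of 3.10 (SE 0.55, edgeR adjusted p = 0.016). Pla2g7, a secreted phospholipase that inactivates platelet-activating factor, was at 543, 355, 424 and 445 CPM in Grn KO libraries, against 99.3, 54.4, 84.5 and 88.8 CPM in Tmem106b KO libraries (log2 fold change 2.59, SE 0.41, edgeR adjusted p = 0.008). Of the 24 genes of cholesterol synthesis, 0 passed in either direction by edgeR, DESeq2 or limma-voom, with 2 at an unadjusted p under 0.05 (median 0.16). Leaving out Tmem106b KO replicate 2 gave 5 lipid genes, all of the 6 but Lipa. Apoe and Plin2 passed with any 1 library left out, Soat1 in 7 of the 8 such fits, Fabp5 in 4 and Nceh1 in 3. Plin2 lost the call with no covariates, with sex as the only covariate and with only Entire libraries.

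The remaining leading genes were of mixed function. Gpx3, a secreted glutathione peroxidase, was at 1302, 1121, 1384 and 1706 CPM in Grn KO libraries, against 55.8, 196, 61.2 and 41.4 CPM in Tmem106b KO libraries. Replicate 2 was the high one of its group, and the log2 fold change of 3.70 (SE 0.58, edgeR adjusted p = 0.008) was 4.64 without it. Rftn1, a lipid raft protein, was at 294, 244, 263 and 282 CPM in Grn KO libraries, against 68.5, 28.8, 57.5 and 63.9 CPM in Tmem106b KO libraries (log2 fold change 2.41, SE 0.35, edgeR adjusted p = 0.005). Cd300lf, a receptor for phosphatidylserine on myeloid cells, was at 86.1, 67.8, 74.5 and 104 CPM in Grn KO libraries, against 13.7, 0.611, 9.08 and 7.83 CPM in Tmem106b KO libraries (log2 fold change 3.44, SE 0.54, edgeR adjusted p = 0.008). Neither gene's groups overlapped. Ctnnb1, beta-catenin, moved less but evenly, with 732, 638, 610 and 628 CPM in Grn KO libraries, against 335, 362, 305 and 422 CPM in Tmem106b KO libraries (log2 fold change 0.92, SE 0.15, edgeR adjusted p = 0.008). Lrp12, a receptor of the LDL receptor family, had a log2 fold change of 1.52 (SE 0.24, edgeR adjusted p = 0.008). Of the 15 higher genes named by rank, 7 passed with any 1 library left out, and the other 8 (Gpx3, Cd300lf, Ctsb, Gpnmb, Lrp12, Ctnnb1, Soat1 and Tecpr1) lost the call without Grn KO replicate 1 and kept it in the other 7 such fits. With only the 8 libraries in the fit all 15 lost it. Ctsb and Soat1 also lost it with no covariates and with sex as the only covariate, Tecpr1 with no scaling beyond the library total and Apoe by DESeq2.

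Further genes among the 72 are named here after their values were seen. Cd22, a lectin that binds sialic acid and restrains phagocytosis, was at 212, 184, 194 and 216 CPM in Grn KO libraries, against 83.2, 20.8, 59.8 and 54.6 CPM in Tmem106b KO libraries (log2 fold change 1.89, SE 0.33, edgeR adjusted p = 0.012). Anxa5, an annexin that binds phosphatidylserine, was at 723, 486, 688 and 729 CPM in Grn KO libraries, against 316, 93.1, 219 and 236 CPM in Tmem106b KO libraries (log2 fold change 1.60, SE 0.27, edgeR adjusted p = 0.0093). Cdo1, which oxidises cysteine, was at 251, 166, 213 and 239 CPM in Grn KO libraries, against 4.83, 23.6, 8.43 and 4.53 CPM in Tmem106b KO libraries (log2 fold change 4.85, SE 0.92, edgeR adjusted p = 0.022). None of these groups overlapped. Chst2, a sulfotransferase of glycan chains, had a log2 fold change of 1.89 (SE 0.31, edgeR adjusted p = 0.008) and was next by p after the 15 genes named by rank. Gga2, an adaptor that sorts lysosomal enzymes at the Golgi, stood at 116, 93.4, 109 and 128 CPM in Grn KO libraries, against 45.3, 51.9, 52.5 and 48 CPM in Tmem106b KO libraries (log2 fold change 1.18, SE 0.22, edgeR adjusted p = 0.022). Cxcr4, a chemokine receptor, was low in both groups, with 5.55 to 13.1 CPM in Grn KO libraries and 0.177 to 4.37 CPM in Tmem106b KO libraries (log2 fold change 3.10, SE 0.65, edgeR adjusted p = 0.039). Of the 72 genes 6 were predicted genes or pseudogenes, and 21 were on one of the 21 pathway lists.

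Besides Grn itself, 3 genes were lower in Grn KO. Upk1b, a tetraspanin first known from urothelium, was at 21.9, 22.5, 37.8 and 23.8 CPM in Grn KO libraries, against 150, 18.6, 87.8 and 108 CPM in Tmem106b KO libraries and 122, 138 and 157 CPM in WT libraries. The overlap came from Tmem106b KO replicate 2 alone: the log2 fold change was -1.78 (SE 0.34, edgeR adjusted p = 0.024) with it and -2.14 (edgeR adjusted p = 0.00012) without it. Serpinf1, which encodes the secreted pigment epithelium-derived factor, was at 40.4, 44.5, 47.3 and 52.3 CPM in Grn KO libraries, against 144, 53.2, 120 and 136 CPM in Tmem106b KO libraries (log2 fold change -1.41, SE 0.28, edgeR adjusted p = 0.027; -1.66 and 0.0045 without replicate 2). Chd9, a chromatin remodelling helicase, was at 38, 42.8, 42.5 and 34 CPM in Grn KO libraries, against 82, 51.3, 83.7 and 83.4 CPM in Tmem106b KO libraries (log2 fold change -1.08, SE 0.21, edgeR adjusted p = 0.022). For both genes the groups did not overlap, and replicate 2 was the lowest Tmem106b KO library. These calls were less stable than those of the leading higher genes: with 1 of the 8 libraries left out in turn, Upk1b passed in 3 fits, Chd9 in 4 and Serpinf1 in 1.

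The level of each gene was also set against WT in each genotype. The WT libraries serve both comparisons, so the 2 values of a gene are given side by side and were not tested against each other. Grn KO over WT gave 91 higher genes (0.426% of genes tested) and 32 lower ones (0.15%). Tmem106b KO over WT gave 0 higher and 1 lower gene (0.00468%), Tmem106b itself, by edgeR, with 2349 genes at an unadjusted p under 0.05; limma-voom gave 0 and 0, and DESeq2 gave 456 and 92. For Tmem106b the log2 fold change over WT was 0.04 (SE 0.22, edgeR adjusted p = 0.97) in Grn KO and -1.49 (SE 0.22, edgeR adjusted p = 0.027) in Tmem106b KO, the 1 call below WT there. For Pld3 the values were 1.93 (SE 0.25, edgeR adjusted p = 0.0012) in Grn KO and 0.24 (SE 0.23, edgeR adjusted p = 0.71) in Tmem106b KO, and Rftn1 (-0.09), Ctnnb1 (-0.02) and Cd63 (-0.04) had Tmem106b KO values within 1 SE of 0.

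Some genes stood on different sides of WT in the 2 genotypes by their fitted values. Gpr137b had a log2 fold change over WT of 1.28 (SE 0.23, edgeR adjusted p = 0.011) in Grn KO and of -0.48 (SE 0.21, unadjusted p = 0.038, edgeR adjusted p = 0.45) in Tmem106b KO. Tmem106b KO replicates 1, 3 and 4 had Gpr137b at 36.3, 30.5 and 37 CPM, within the WT range of 30.3 to 43.4 CPM. Only replicate 2, at 14.2 CPM, lay below that range, so whether Gpr137b lay below WT there is not settled. Lrp12 had 0.92 (SE 0.26, edgeR adjusted p = 0.11) in Grn KO and -0.61 (SE 0.25, edgeR adjusted p = 0.43) in Tmem106b KO, so it passed in the direct comparison and in neither comparison with WT. With the Grn KO value over WT first and the Tmem106b KO value after it, Lipa (1.07 and -0.30), Ctsd (1.25 and -0.36), Plin2 (1.07 and -0.24), Rragc (0.73 and -0.18), Atg7 (0.97 and -0.24) and Hif1a (0.99 and -0.28) also passed in the direct comparison without passing against WT in either genotype. The Tmem106b KO values of these genes had SEs of 0.27, 0.35, 0.24, 0.19, 0.25 and 0.27 in that order. Each was thus about as large as its SE, and whether these genes lay below WT in Tmem106b KO is not settled. Ctsd was at 20382, 2759, 13373 and 16251 CPM in Tmem106b KO libraries, the low value being replicate 2, and at 15557, 10447 and 17834 CPM in WT libraries. Other genes stood above WT in both. Gpnmb had 11.02 (SE 1.43, edgeR adjusted p = 0.0012) in Grn KO and 4.37 (SE 1.06, unadjusted p = 0.00052, edgeR adjusted p = 0.43) in Tmem106b KO. Lgals3 had 4.08 (SE 0.45, edgeR adjusted p = 0.00043) in Grn KO and 1.15 (SE 0.40, unadjusted p = 0.0088, edgeR adjusted p = 0.43) in Tmem106b KO. In 3 of the 4 Tmem106b KO libraries Lgals3 lay above the WT range of 41.7 to 44.1 CPM, replicate 2 being the exception at 38.3 CPM. None of these Tmem106b KO values passed after adjustment.

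**Figure D3:**
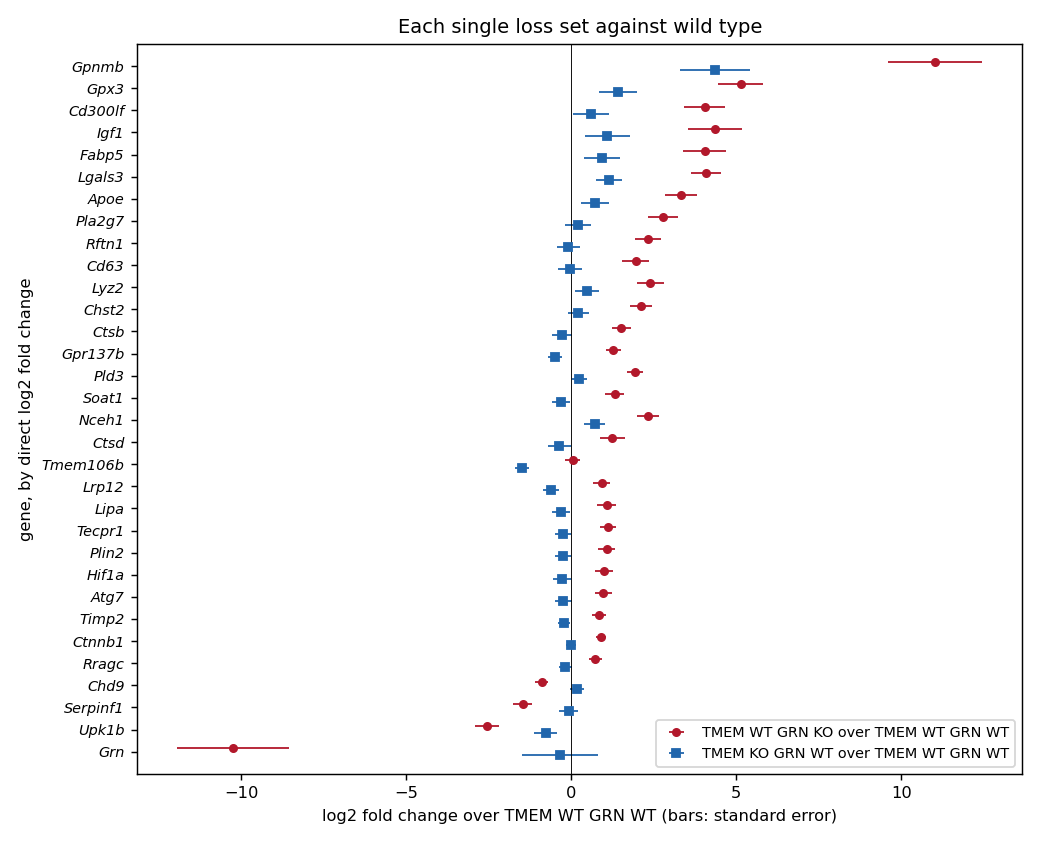
Log2 fold changes over TMEM WT GRN WT for selected genes that passed in the direct comparison, ordered by their direct log2 fold change, in TMEM WT GRN KO (red circles) and TMEM KO GRN WT (blue squares), with bars of 1 standard error. Slc5a7, Chat, Slc18a3, Chrnb4, Gpr151, Necab2 and Mcoln3 also passed but are not drawn. Among the genes drawn, most blue squares lie near 0 while most red circles lie to the right. The red circles of Grn, Upk1b, Serpinf1 and Chd9, the lower genes, lie to the left. Tmem106b has the reverse layout (0.04 and -1.49), and Gpnmb, Gpx3 and Lgals3 have both values above 0.

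The disease-associated microglia genes held more calls than any other of the 21 lists described. Of 31 members tested 11 passed as higher, where 0.337% of all genes did, and 0 as lower. Every Grn KO library lay above every Tmem106b KO library in 20 of them, where 4% of all genes did so. The median log2 fold change was 1.40, against 0.02 over all genes. Besides Gpnmb, Lgals3, Apoe, Ctsb, Ctsd, Cd63 and Fabp5, the members that passed were Timp2, a metalloproteinase inhibitor (log2 fold change 1.06, SE 0.18, edgeR adjusted p = 0.012), Lyz2, lysozyme (1.92, SE 0.36, edgeR adjusted p = 0.019), Hif1a, the hypoxia-inducible factor subunit (1.26, SE 0.26, edgeR adjusted p = 0.037), and Igf1, insulin-like growth factor 1. Igf1 was at 218, 163, 211 and 226 CPM in Grn KO libraries, against 25.1, 15.3, 28 and 21.7 CPM in Tmem106b KO libraries and 16.3, 5 and 10.6 CPM in WT libraries (log2 fold change 3.25, SE 0.69, edgeR adjusted p = 0.045). Its Grn KO values were far above both other groups, although the call failed in each of the 8 fits that left out a library; Timp2 and Lyz2 passed in 6 of those fits and Hif1a in 2. Other members of the state had sizeable values that did not pass. Clec7a, the beta-glucan receptor dectin-1, was at 460, 395, 561 and 536 CPM in Grn KO libraries, against 208, 12.1, 151 and 104 CPM in Tmem106b KO libraries (2.09, SE 0.52, edgeR adjusted p = 0.12). For Cst7, cystatin F, the values were 378, 281, 360 and 386 CPM in Grn KO libraries and 142, 17.8, 144 and 117 CPM in Tmem106b KO libraries (1.79, SE 0.5, edgeR adjusted p = 0.21). Trem2, the receptor upstream of this state, had a log2 fold change of 0.56 (SE 0.33, edgeR adjusted p = 0.93). Without Tmem106b KO replicate 2, 8 members passed, against 42 higher genes in all, and the median was 1.12. Ctsd, Hif1a (1.13, edgeR adjusted p = 0.1) and Igf1 (3.31, edgeR adjusted p = 0.097) were not among them. Without Grn KO replicate 1, 2 members passed, Lgals3 and Apoe.

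**Figure D4:**
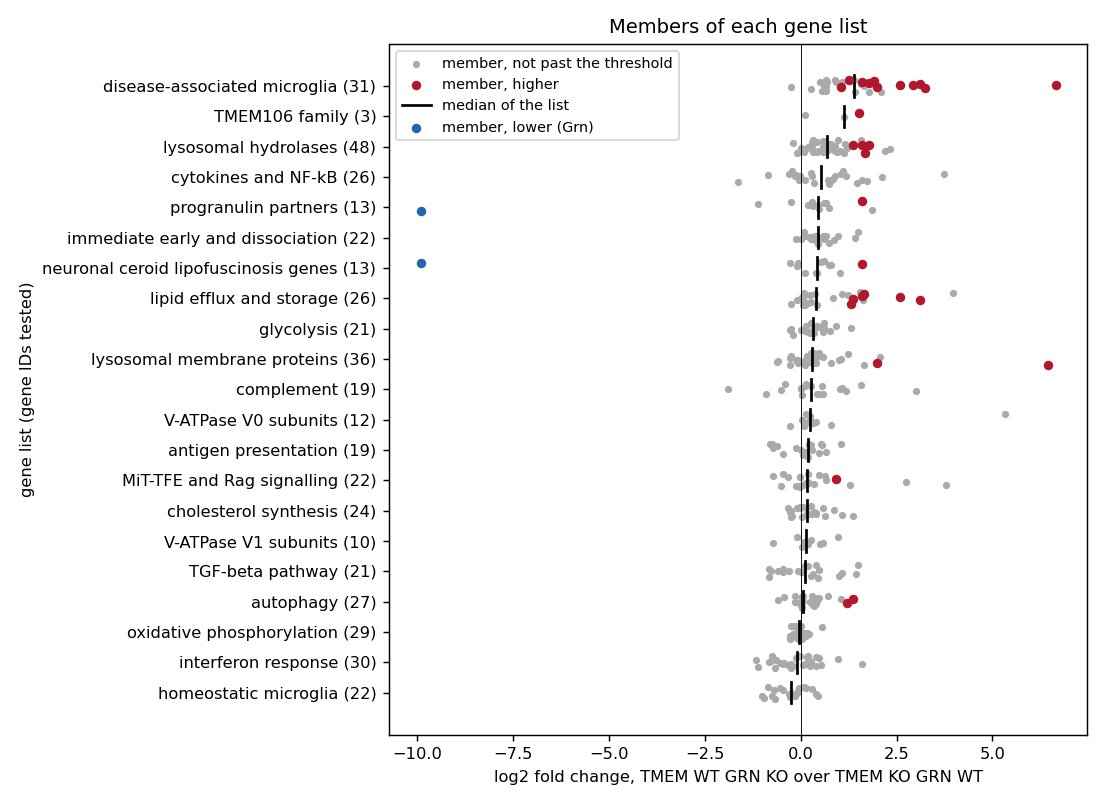
Each point is a gene of the named list, placed by its log2 fold change, TMEM WT GRN KO over TMEM KO GRN WT; red points passed as higher, the blue points are Grn, which passed as lower and is on 2 lists, grey points did not pass, and black ticks are list medians. Medians run from 1.40 for the disease-associated list (31 genes) to -0.26 for the homeostatic list (22 genes), and red points sit mainly in the disease-associated, lipid and lysosomal hydrolase lists.

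Homeostatic microglia genes did not pass with all libraries, and their values turned on the divergent library. Of 22 members 0 passed in either direction by edgeR or limma-voom, with a median of -0.26. By DESeq2 1 was lower, against 75 genes in all. An unadjusted p under 0.05 was found for 5, against 1345 of all 21371 genes. Tmem119 was at 2490, 1700, 2987 and 2633 CPM in Grn KO libraries, against 5863, 807, 4250 and 5887 CPM in Tmem106b KO libraries and 7140, 5265 and 6887 CPM in WT libraries. Without replicate 2 all Tmem106b KO values would lie above all Grn KO values, and with it they do not. The log2 fold change of Tmem119 was -0.67 (SE 0.33, edgeR adjusted p = 0.83) with all libraries, -1.01 (edgeR adjusted p = 0.092) without replicate 2 and -1.02 (edgeR adjusted p = 0.011) with only Entire libraries, 3 against 3 in the 2 groups. Crybb1, a crystallin used as a marker of mature microglia, was at 91.2, 79.7, 138 and 113 CPM in Grn KO libraries, against 356, 46.8, 247 and 238 CPM in Tmem106b KO libraries. It had -1.02 (edgeR adjusted p = 0.3) with all libraries, -1.35 (edgeR adjusted p = 0.006) without replicate 2 and -1.42 (edgeR adjusted p = 0.00063) with only Entire libraries. Slc2a5, a fructose transporter of microglia, had -0.95 (edgeR adjusted p = 0.49), -1.30 (edgeR adjusted p = 0.024) and -1.30 (edgeR adjusted p = 0.0049) in the same 3 fits. Leaving out replicate 2 made 3 members lower (Slc2a5, Crybb1 and Siglech, median -0.59), against 12 lower genes in all. With only Entire libraries these 3, Tmem119 and Selplg were among the lower ones (median -0.64), against 52 lower genes in all. Besides Slc2a5, Crybb1 and Siglech, the 12 genes lower without replicate 2 included the surface receptors P2rx1 and Siglece, named here after their values were seen.

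Most other pathways gave no call between the genotypes. By edgeR, 0 members passed in either direction among 19 complement genes (median 0.28), 19 antigen presentation genes (0.19), 30 interferon response genes (-0.09), 26 cytokine and NF-kB genes (0.53), 22 immediate early and dissociation genes (0.44), 29 oxidative phosphorylation genes (-0.05), 21 glycolysis gene IDs (0.32) and 21 TGF-beta pathway genes (0.10). Without Tmem106b KO replicate 2 these medians were 0.11, -0.27, -0.33, 0.17, 0.23, 0.10, 0.52 and -0.05 in the same order, so the antigen presentation, oxidative phosphorylation and TGF-beta medians changed sign, and 1 glycolysis gene, Pkm, was higher. With only Entire libraries they were 0.12, -0.40, -0.44, 0.01, 0.19, 0.17, 0.60 and -0.28. With all libraries, the members of these lists at an unadjusted p under 0.05 numbered 1, 1, 1, 11, 4, 0, 6 and 1 in that order. Over all 21371 genes 1345 were at such a p. Of the list members limma-voom called 0, and DESeq2 called 2 cytokine, 1 immediate early and 2 glycolysis genes as higher, against 300 genes in all. Il1b, interleukin 1 beta, was at 55.6, 25.5, 144 and 129 CPM in Grn KO libraries and 47.4, 1.83, 32.4 and 31.6 CPM in Tmem106b KO libraries, which overlap (log2 fold change 1.59, SE 0.56, edgeR adjusted p = 0.45). Among 13 progranulin partners and 13 ceroid lipofuscinosis genes, Ctsd was higher and Grn lower in both lists, which share them, and the other members did not pass. Psap, prosaposin, the partner that carries progranulin to the lysosome, had a log2 fold change of 0.74 (SE 0.26, edgeR adjusted p = 0.45). With only Entire libraries, 5 of 21 glycolysis gene IDs and 3 of 10 V1 subunits were higher and 1 of 21 TGF-beta pathway genes was lower. In that fit 121 genes were higher and 52 lower in all. With all libraries Atp6v1a, the catalytic V1 subunit, was at 456, 277, 337 and 388 CPM in Grn KO libraries. Its Tmem106b KO values were 129, 483, 168 and 129 CPM, the 483 CPM belonging to replicate 2. The log2 fold change of Atp6v1a was 0.97 (edgeR adjusted p = 0.25) with replicate 2 and 1.36 (edgeR adjusted p = 0.014) without it.

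Transcripts of medial habenula neurons were also among the higher genes. The medial habenula is a small cholinergic nucleus of the epithalamus. Of 12 of its markers 5 passed as higher, Chat, Slc5a7, Chrnb4, Gpr151 and Necab2, where 0.337% of all genes did, with a list median of 5.19. The list was chosen with these data known, so its count and median describe the observation and support nothing further. Chat, the enzyme that makes acetylcholine, was at 16.1, 31.3, 21.4 and 14.9 CPM in Grn KO libraries and had 0 counts in all 4 Tmem106b KO and all 3 WT libraries, so it was at least 1253-fold higher (4349 counts against a floor of 3 counts over the group; edgeR adjusted p = 0.049). Slc5a7, the choline transporter, had 4233 counts in Grn KO libraries against 3 in Tmem106b KO libraries, all in replicate 1, a ratio of 1220 (95% interval 417 to 5917, counting error only). Slc18a3, the vesicular acetylcholine transporter, which lies within the Chat gene so that reads near their borders cannot be told apart, was at 13.7, 20.5, 25.9 and 24 CPM in Grn KO libraries, against 0.594, 0.158, 0 and 0 CPM in Tmem106b KO libraries (edgeR adjusted p = 0.031). All 3 cholinergic genes were thus present in every Grn KO library and at or near 0 in Tmem106b KO libraries. Necab2, a neuronal calcium-binding protein, was at 104, 121, 104 and 112 CPM in Grn KO libraries, against 2.72, 52.1, 5.87 and 3.56 CPM in Tmem106b KO libraries, replicate 2 being the high one (log2 fold change 3.75, edgeR adjusted p = 0.026; 4.51 without replicate 2). It was the 1 habenula marker that still passed without replicate 2, although the fold changes of Chat (12.86), Slc5a7 (9.33) and Chrnb4 (7.58) and the list median (5.82) stayed large there. With only Entire libraries 6 of the 12 passed, against 121 higher genes in all, with a median of 6.06. Without Grn KO replicate 1, 0 of the 5 passed. Each of the 5 passed in at most 2 of the 8 fits that left out a library, Chat in 0. Slc18a3 passed in 1 of those fits. It did not pass without Tmem106b KO replicate 2 (log2 fold change 6.86, edgeR adjusted p = 0.074) or with only Entire libraries.

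The summed markers show how neuronal RNA was spread. The habenula list summed to 499, 519, 491 and 456 CPM in Grn KO libraries, against 24.9, 891, 120 and 29.5 CPM in Tmem106b KO libraries and 5.16, 147 and 19.6 CPM in WT libraries (exact permutation p = 0.29, two-sided, 0.8 adjusted over 14 lists). The general neuron list, by contrast, summed to 1018, 651, 584 and 925 CPM in Grn KO libraries, against 297, 8913, 1280 and 365 CPM in Tmem106b KO libraries and 118, 1649 and 137 CPM in WT libraries (exact permutation p = 0.69, two-sided, 0.83 adjusted). Tmem106b KO replicate 2 thus had the highest sum of both lists. In its habenula sum Calb2 weighed heavily, at 483 CPM (TMM-scaled), against 34.6 to 74.4 CPM in Grn KO libraries. Of the 5 markers that passed, Chat, Slc5a7 and Chrnb4 were at 0 CPM in that library, Gpr151 at 1.68 CPM and Necab2 at 52.1 CPM. Its sum, and the p of the list, therefore do not stand for those 5 markers. Of the 12 neuron markers tested, 0 passed between the genotypes by edgeR or limma-voom and 1 by DESeq2, with 1 at an unadjusted p under 0.05. In libraries outside the comparison, the habenula list summed to 412 to 1692 CPM in the 3 Tmem106b HET Grn KO libraries and to 6.8 to 94.4 CPM in the 4 Tmem106b HET Grn WT libraries. The part that neuronal RNA, its source and the dissection play in these differences was not tested.

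**Figure D5:**
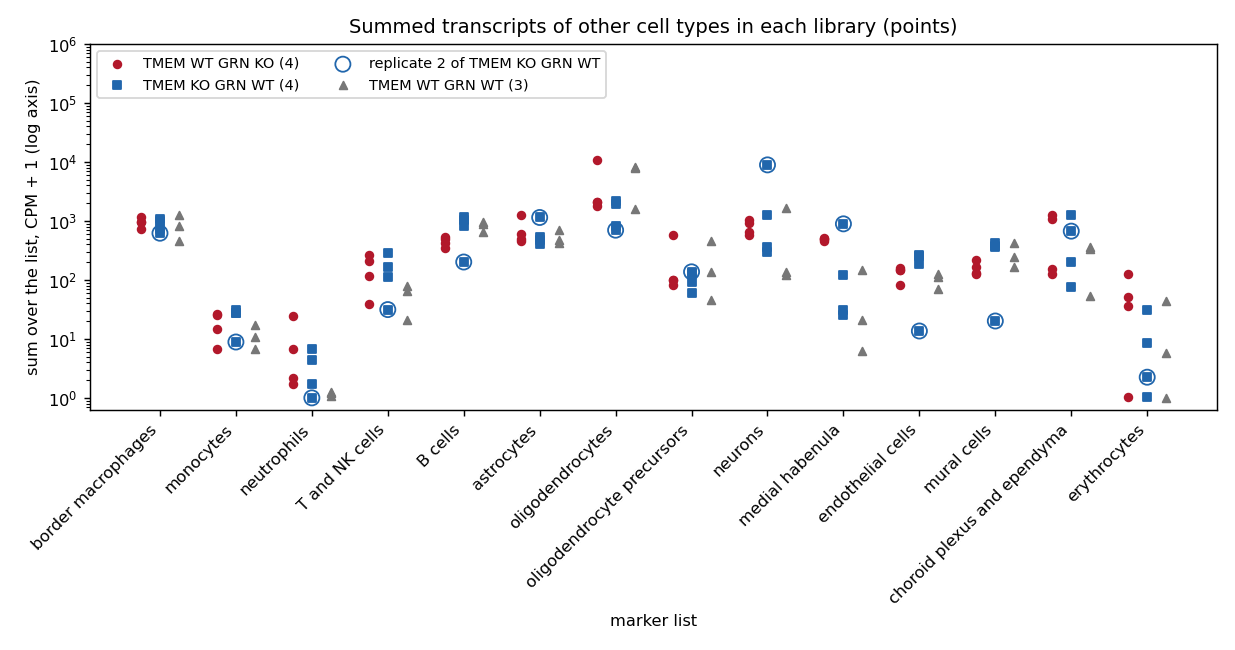
Points are libraries (4 TMEM WT GRN KO as red circles, 4 TMEM KO GRN WT as blue squares, 3 TMEM WT GRN WT as grey triangles), and the vertical axis is the sum over each marker list in CPM of the library total plus 1, on a log scale. Open rings mark Tmem106b KO replicate 2, which is highest of its group for neurons (8913 CPM) and habenula markers (891 CPM) and lowest for B cells (200 CPM), endothelial cells (12.6 CPM) and mural cells (19.1 CPM); the 4 Grn KO libraries lie close together for habenula markers (456 to 519 CPM).

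For the other cell types no marker sum passed between the genotypes. Over the 14 lists the smallest adjusted p was 0.8 (exact permutation tests), but 1 list alone at the smallest p of 0.029 could not have passed the adjustment, so this says nothing of stability. B cell markers summed to 348 to 530 CPM in Grn KO libraries, against 1052, 200, 1161 and 822 CPM in Tmem106b KO libraries, and mural cell markers to 127 to 213 CPM in Grn KO libraries, against 354, 19.1, 382 and 425 CPM in Tmem106b KO libraries. In both lists the Tmem106b KO libraries other than replicate 2 lay above all Grn KO libraries. Of the 10 astrocyte markers all had a positive fold change, with a median of 0.86. Every Grn KO library lay above every Tmem106b KO library in 5, where 4% of all genes separated that way. There were 0 calls by edgeR, DESeq2 or limma-voom, and 2 markers had an unadjusted p under 0.05. Oligodendrocyte markers summed to 2099, 10933, 1803 and 2070 CPM in Grn KO libraries and 1972, 696, 835 and 2210 CPM in Tmem106b KO libraries, with the high value in the Hemi library of Grn KO. Border macrophage markers summed to 739 to 1160 CPM in Grn KO libraries and 618 to 1086 CPM in Tmem106b KO libraries. Of the 11 markers 1 passed, where 0.337% of all genes did: Ms4a7, a macrophage membrane protein (log2 fold change 2.96, SE 0.53, edgeR adjusted p = 0.016). The 10 others, such as F13a1 (0.06) and Stab1 (0.03), did not pass. Monocyte and neutrophil markers summed to at most 29.6 CPM in any of the 8 libraries, and the neutrophil marker Ly6g was at 0 in all of them. With log2 sums of neuron and oligodendrocyte markers added as covariates, tried once the data had been seen, 45 genes were higher and 3 lower, and 41 of the 72 were still higher. Chat, Slc5a7, Slc18a3, Chrnb4 and Gpr151 were not among those 41.

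The 76 genes were looked at again in libraries outside the 2 groups compared. In mice heterozygous for Tmem106b, 3 Grn KO libraries were set against 4 Grn WT libraries in the same fit of all 26 libraries. These groups share no library with the 2 groups of the direct comparison. The estimate of spread and the sex and dissection terms are shared, so the 2 comparisons are not fully independent. Of the 72 higher genes, 55 were higher there too, and 70 had a positive fold change; the 55 were part of 1799 genes higher there, 8.42% of all genes tested. All 4 lower genes were among the 1294 lower there, 6.05% of all genes. Without Tmem106b HET Grn KO replicate 3, which held the most neuron transcripts of its group, the background was 3.75% and still 70 of the 72 had a positive fold change, with 55 passing. Upk1b had a log2 fold change of -3.08 (SE 0.39) and Chd9 one of -1.31 (SE 0.22) in these libraries. Gpr137b was among the higher genes that did not pass there, with 0.63 (SE 0.22, edgeR adjusted p = 0.058), and Soat1 (0.39), Lipa (0.30), Lrp12 (0.30), Rragc (0.13) and Tmem106b (-0.06) had values closer to 0 than in the direct comparison.

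The promoters of the higher genes were searched for elements of the MiT-TFE factors, which switch on lysosomal genes. RefSeq gave 66 promoter windows for 58 of the 72 genes, each 300 bases long from 250 before to 50 after a start site in GRCm38.p6. On either strand TCACGTG or its complement CACGTGA, the core of the lysosomal CLEAR element, was in 9 of the 66 windows (13.6%), of Atg7, Chat, Ctsd, Dpp7, Gga2, Hif1a, Nceh1, Plin2 and Rragc, and in 5.22% of the 17112 windows of all genes tested. The shorter palindrome CACGTG, which lies within it, was in the same 9 windows (13.6%) and in 8.99% of all windows. The M-box TCACATG or CATGTGA was in 3 of 66 windows (4.55%, Dpp7, Gsto1 and Tecpr1) and in 2.6% of all. A match is a description of the letters in the window. The element lay upstream of a RefSeq start site in Dpp7, a dipeptidyl peptidase of lysosomes and vesicles, Nceh1, Ctsd, Atg7, Chat, Rragc and Hif1a. Such a site can lie inside the annotated gene. In Nceh1, Ctsd and Atg7 the element itself was inside it, as these genes begin at chr3:27182965, chr7:142388038 and chr6:114643097. The stretches below show 4 of the genes: Dpp7, Nceh1, Ctsd and Atg7. They are given 5′ to 3′ on the strand of the gene, with CACGTG in capitals, whose first base is at -73, -26, -98 and -132 from the start site in that order. Their positions are chr2:25356370-25356435 (minus strand), chr3:27182948-27183003 (plus), chr7:142387890-142387955 (minus) and chr6:114670934-114670999 (plus).
Dpp7: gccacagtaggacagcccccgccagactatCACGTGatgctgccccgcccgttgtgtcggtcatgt
Nceh1: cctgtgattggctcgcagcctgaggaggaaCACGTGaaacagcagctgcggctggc
Ctsd: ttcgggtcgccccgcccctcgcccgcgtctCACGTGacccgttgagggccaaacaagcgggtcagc
Atg7: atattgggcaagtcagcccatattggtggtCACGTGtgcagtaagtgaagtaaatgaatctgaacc
In Dpp7 and Ctsd the capitals are part of both TCACGTG and CACGTGA, which overlap there, in Nceh1 of CACGTGA and in Atg7 of TCACGTG.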

How the data were processed

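The 26 libraries hold RNA of mouse microglia. Per the labels' protocols, polyA RNA was taken with an RNeasy Plus Micro kit and made into libraries with the Smart-Seq v4 Ultra Low Input and Nextera XT kits. GSNAP and the build GRCm38 are named in the submitters' processing notes; the counter, annotation and strand handling are not given in the sources used here. The authors deposited 1 table per library with raw exonic counts per Ensembl gene, used for all tests, and RPKM values made by the authors per kilobase of gene width, used only to compare levels between genes. Of 52636 gene IDs 52489 matched GENCODE names and 147 did not. Libraries held 37562732 to 63710833 counts; no molecular identifiers were used, so intervals and floors cover counting error only.

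Groups came from the genotype labels. All 26 libraries were fitted with edgeR 4.0.16 (R 4.3.3; filterByExpr, TMM, robust quasi-likelihood test) with terms for the 7 groups, sex and dissection, and p-values were adjusted by Benjamini-Hochberg over 21371 genes, threshold 0.05. A standard error is the absolute log2 fold change divided by the square root of F. Levels are TMM-scaled CPM. Single values were compared with exact permutation tests (scipy 1.17.1). Alternatives were DESeq2 1.42.0, limma-voom (limma 3.58.1), other scalings, filters, covariates and samples, and each of the 8 libraries left out. The code was tested on simulated data. Between replicates, chi-square per gene was 34 to 1470 over 12 pairs, so no pair differed by as little as sampling noise. Results for a few genes are not reported here. The genotypes, gene lists and markers were chosen with earlier results of these data known. Named are Grn, Tmem106b, up to 15 genes per direction by p (adjusted p under 0.05, absolute log2 fold change of at least 0.5, at least 5 CPM), up to 4 members per pathway list and 3 per marker list; the members of a list that passed, and other genes named beside them such as Clec7a, Cst7, Trem2, Tmem119, Psap, Slc18a3, Dpp7 and Slc25a39, were chosen after their values were seen.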

Additional observations from a re-analysis of the deposited data

Results flagged for a closer look

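In 130 groups of 4 values, for named genes and marker sums, 16 held a library whose gap to the nearest other, as a share of the range, passed Dixon's 95% critical value; chance gives about 1 group in 20. Tmem106b KO replicate 2 was that library in 10 of the 16. It was the highest of its group for Gpx3 (196 CPM, the others 41.4 to 61.2), Nceh1 (123 CPM, the others 57.6 to 66.6), Rragd (46.8 CPM, the others 5.82 to 7.09), Necab2 (52.1 CPM, the others 2.72 to 5.87) and Atp6v1a (483 CPM, the others 129 to 168). It was the lowest for Chd9 (51.3 CPM, the others 82 to 83.7). Of the marker sums, it was the highest for astrocytes (1143 CPM, the others 413 to 531), neurons (8913 CPM, the others 297 to 1280) and medial habenula (891 CPM, the others 24.9 to 120), and the lowest for monocytes (7.85 CPM, the others 26.4 to 29.6).

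Tmem106b KO replicate 1 was the 1 library of its group with any count of Slc5a7 (0.0743 CPM) and of Chrnb4 (0.718 CPM), the other 3 being at 0. In Grn KO, Upk1b was highest in replicate 3 (37.8 CPM, the others 21.9 to 23.8) and Rragd in replicate 1 (87.3 CPM, the others 64.1 to 67.5). Grn KO replicate 2, the Hemi library of its group, held the most oligodendrocyte markers (10933 CPM, the others 1803 to 2099) and oligodendrocyte precursor markers (567 CPM, the others 79.8 to 99.3).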

How the results depend on the processing

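The 72 higher genes had the same sign in each of the 20 alternatives, except 1 gene with only the 8 libraries in the fit; the number that passed moved widely. Higher and lower genes numbered 300 and 75 by DESeq2, 146 and 5 by limma-voom, 31 and 5 with no scaling beyond the library total (which shifts the median of all genes to -0.21), 36 and 2 with no covariates, 23 and 4 with sex as the only covariate, 1 and 0 with only the 8 libraries, 121 and 52 with only Entire libraries, and 45 and 3 with marker covariates (added after seeing the data). They ran from 8 to 52 and from 0 to 12 with each library left out. RLE size factors gave 83 and 5, no filter 64 and 4, dissection as the only covariate 108 and 4, and no robust estimation 75 and 4. The cause of these moves was not tested. Pathway list members that passed (21 higher, 1 lower) numbered 45 and 2 by DESeq2, 32 higher by limma-voom, 12 with the library total, 10 with no covariates, 6 with sex only, 1 and 0 with the 8 libraries and 36 and 8 with Entire libraries, and 5 to 20 and 0 to 4 with each library left out. Grn KO over WT gave 905 higher and 265 lower genes by DESeq2 and 144 higher by limma-voom, against 91 and 32; Tmem106b KO over WT gave 456 and 92 by DESeq2 and 0 lower by limma-voom, against 0 and 1. Tmem106c changed sign with the library total only (-0.15, edgeR adjusted p = 0.89). With any 1 library left out, the exact permutation p of Grn and of Tmem106b was 0.057, the smallest that 3 against 4 can give. No paired analysis was possible because the labels carry no replicate numbers, and libraries were numbered in accession order only.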
